A study of Homo sapiens with 8 samples.

Results

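RNA levels of 47 DNA repair genes were examined in DLD1 cells, an established human colorectal cancer cell line, after depletion of UHRF1 and treatment with trichostatin A (TSA). The genes fell into 5 arms, namely 22 genes of homologous recombination, 10 Fanconi genes, 4 checkpoint kinases, 4 mismatch repair genes and 7 genes of end joining. They were found by name, as every non-control probe whose gene name equalled a member, which gave 77 probes and all 47 genes of the 36337 gene names on the array. In 31 genes a single probe was present, and in the other 16 the brightest probe, by its mean over the 8 arrays, stood for the gene.

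The series holds 8 single-colour Agilent SurePrint G3 arrays in 4 groups of 2. All cells received an siRNA for 48 h, either a control (siCONT) or one of 2 siRNAs against UHRF1 (siUHRF1-1 and siUHRF1-2), and then 300 nM TSA or its solvent ethanol (mock) for 24 h. The groups are called siCONT with mock, depleted cells with mock, siCONT with TSA and depleted cells with TSA. UHRF1 brings the maintenance DNA methyltransferase to newly replicated DNA, and TSA inhibits histone deacetylases. Each UHRF1 depletion group held 1 array of each siRNA, and all data come from 1 cell line. The study asked whether blocking histone deacetylation adds to the effect of losing UHRF1 on gene expression.

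Homologous recombination repairs a broken chromosome from its sister copy, and Fanconi proteins unhook crosslinks between DNA strands and pass the break to the recombination proteins. Both are known to work mainly in cells that are replicating their DNA. End joining ligates broken ends directly in any phase of the cell cycle, and mismatch repair corrects errors of the replication fork. DLD1 is a line known for microsatellite instability, the mark of faulty mismatch repair.

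Levels are on the log2 scale, relative to the 75th percentile of the processed intensities of each array, and a probe at that percentile therefore has a level of 0. They were tested with limma over all probes. A gene was called where it moved 2-fold or more and its p, adjusted by Benjamini-Hochberg, was below 0.05. Testing needed a probe that stood well above background throughout 1 or more of the groups compared. The 2 siCONT arrays of an agent differed by little more than repeated spots of the same array (1.18 and 1.09 times the spot noise, against 12.7 and 10.5 times between the siRNAs). A second fit therefore counted them as 1 sample (6 samples), and its results stand beside the first. Nothing states that the siCONT arrays came from separate cultures, so the p-values may measure technical spread. All mock arrays shared 1 row of the slide and all TSA arrays the other, and the agent and the row cannot be told apart. Likewise all siCONT arrays lay in columns 1 and 2 of the slide and all depleted arrays in columns 3 and 4. UHRF1 depletion and the column cannot be told apart either. On each array 43.3% to 48.0% of probes were detected above background, and the brightest probes of 45 of the 47 genes were so on all 8 arrays. In such bulk RNA, fewer cells that express a gene and less RNA per cell cannot be told apart. All 10 colon epithelium markers were above background on all arrays, as were 0 of 6 fibroblast, 2 of 5 immune (CD68, CD14) and 0 of 4 endothelial markers. A further 4 fibroblast, 1 immune and 2 endothelial markers were above background on some arrays, whereas COL1A2, COL3A1, CD3E, PTPRC, PECAM1 and KDR were so on none. In depleted cells with TSA, relative to siCONT with mock, the fibroblast marker COL1A1 (4.92) and the endothelial marker VWF (4.89) were called higher on the log2 scale. Of 3 immune markers tested, 1 was also called higher, and the 3 changed by 1.28 to 2.31. The part of these markers in the results was not tested.

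UHRF1 itself stood at 1.98 and 2.01 in siCONT with mock and at 0.34 and −0.02 after its siRNAs, 1.04 and 1.01 in siCONT with TSA, and −1.55 and −2.14 after its siRNAs with TSA. Both siRNA arrays lay below both siCONT arrays under either agent. The change was −1.83 ± 0.22 (SE, limma adjusted p = 0.0120) under mock and −2.87 ± 0.22 (adjusted p = 0.00234) under TSA. With siCONT counted as 1 sample the adjusted p-values were 0.252 and 0.0535.

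The promoters of 5 members are shown first, since these genes span the range of changes described later: RAD54L, BRIP1, CHEK2 and FANCG were called lower with the combined treatment and MSH3 was not. Each sequence is the 250 bases upstream of a RefSeq transcription start, 5′ to 3′ on the gene's own strand (GRCh38.p14). They are chr1:46247513-46247762 (plus strand) for RAD54L, chr17:61863529-61863778 (minus strand) for BRIP1, chr22:28741821-28742070 (minus strand) for CHEK2, chr9:35079943-35080192 (minus strand) for FANCG and chr5:80654402-80654651 (plus strand) for MSH3. Capitals mark 3 motifs of cell cycle promoters, searched on both strands. The letters CCAAT are those of the CCAAT box, the letters TTTGAA those of the cell cycle homology region, and for E2F the letters TTTGGCGC, the letters TTTCGCGC and the letters TTTCCCGC were searched, whose matches can overlap.
RAD54L: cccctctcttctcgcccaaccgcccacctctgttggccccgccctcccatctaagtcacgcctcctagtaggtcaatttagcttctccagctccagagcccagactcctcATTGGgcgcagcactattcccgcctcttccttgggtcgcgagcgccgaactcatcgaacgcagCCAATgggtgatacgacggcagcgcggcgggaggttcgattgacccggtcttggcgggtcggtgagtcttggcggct
BRIP1: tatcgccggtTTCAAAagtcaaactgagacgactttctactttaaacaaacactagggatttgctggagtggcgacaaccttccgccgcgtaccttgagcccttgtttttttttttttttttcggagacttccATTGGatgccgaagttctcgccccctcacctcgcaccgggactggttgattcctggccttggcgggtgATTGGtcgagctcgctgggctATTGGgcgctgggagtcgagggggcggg
CHEK2: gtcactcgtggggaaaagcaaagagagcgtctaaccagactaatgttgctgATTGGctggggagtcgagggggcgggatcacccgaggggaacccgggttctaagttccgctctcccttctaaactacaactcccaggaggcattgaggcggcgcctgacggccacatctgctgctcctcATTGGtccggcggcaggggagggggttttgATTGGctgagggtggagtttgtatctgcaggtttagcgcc
FANCG: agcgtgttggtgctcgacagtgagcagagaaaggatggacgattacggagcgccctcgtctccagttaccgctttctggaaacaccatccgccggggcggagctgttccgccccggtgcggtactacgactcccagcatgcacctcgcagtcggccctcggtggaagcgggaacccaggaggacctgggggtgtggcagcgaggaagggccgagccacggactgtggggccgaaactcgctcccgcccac
MSH3: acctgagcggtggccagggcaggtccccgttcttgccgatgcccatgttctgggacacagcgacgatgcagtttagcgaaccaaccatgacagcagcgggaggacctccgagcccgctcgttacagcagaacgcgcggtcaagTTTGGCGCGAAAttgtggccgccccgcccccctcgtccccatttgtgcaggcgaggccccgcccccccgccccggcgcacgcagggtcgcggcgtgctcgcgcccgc

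RAD54L and CHEK2 carried the CCAAT letters, BRIP1 carried them beside the cell cycle homology letters, FANCG held none of the 3 motifs, and MSH3 held overlapping E2F letters on both strands. The RefSeq table matched 41 of the 47 members with 60 upstream windows. CCAAT letters were found in 27 of these windows (45.0%) against 32.0% of all 35116 windows in the table. The cell cycle homology letters were found in 4 (6.67%) against 13.3% of all windows, and E2F letters in 2 (3.33%) against 2.32%. Among members called lower with the combined treatment, 13 of 30 windows (43.3%) held CCAAT and 0 of 30 held E2F letters, and among the other members 14 of 30 (46.7%) and 2 of 30 (6.67%) did. A match is a run of letters in this window and was not tested as a binding site.

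**Figure D1:**
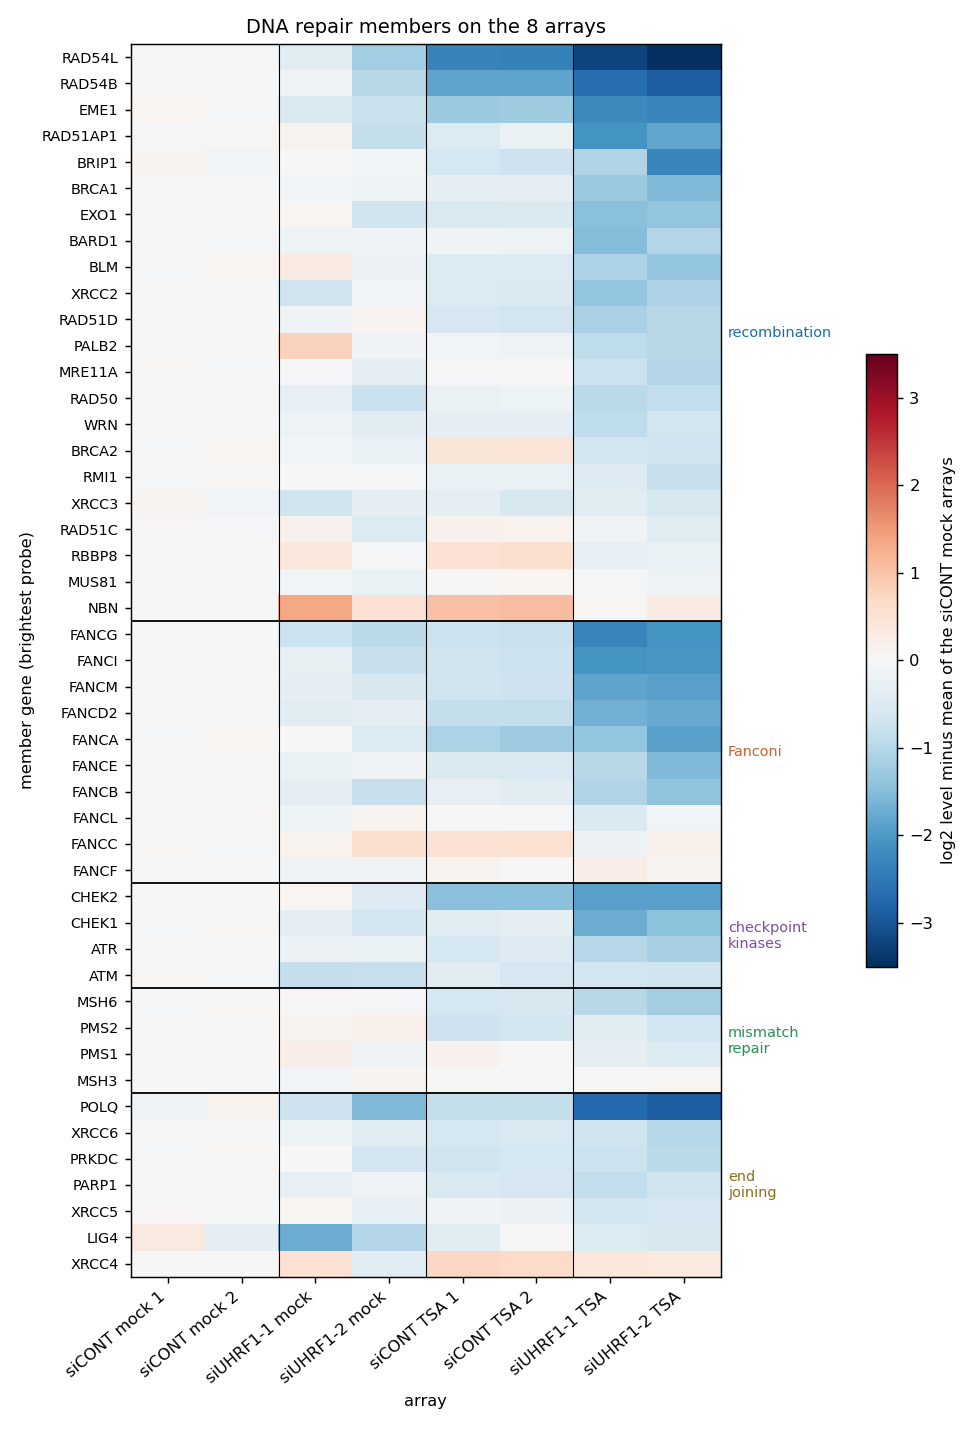
Heat map of the log2 level of each member (rows, by arm and ordered by the change with the combined treatment) on the 8 arrays (columns), minus the mean of the siCONT mock arrays. The darkest cells are those of RAD54L, RAD54B and POLQ in UHRF1-depleted cells with TSA, and the row of MSH3 stays near 0 on all arrays.

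None of the 46 members tested was called after UHRF1 depletion alone (under mock), where 0.9% of all genes tested were called lower and 3.3% higher. Without the fold minimum 3 members passed the adjusted p, namely EME1 (−0.64 ± 0.14), FANCG (−0.85 ± 0.13) and ATM (−0.81 ± 0.12), with limma adjusted p-values of 0.0446, 0.0220 and 0.0208. The limma p was under 0.05 without adjustment for 13 members, and for 3 with siCONT counted as 1 sample. In that fit 0 members were called, against 0.0238% of all genes either way. The methods' t-test with the 2-fold minimum called 0 members with and without adjustment. The median change of the members was −0.20, beside −0.10 over all genes tested.

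POLQ, the polymerase of microhomology-mediated end joining, had the largest change of the tested members with UHRF1 depletion alone, −1.14 ± 0.27 with an adjusted p of 0.0561. It was called when only probes above background on all arrays were tested (−1.14), and, with RAD54L, without the siUHRF1-1 array with mock, while without the siUHRF1-2 array NBN was called higher. The siRNAs differed in size under mock. Their changes had the same sign in 32 of 47 members, and both were lower in 29. Both are taken from the same siCONT mean, so their signs are not independent. The 47 include LIG4, not tested there, and the share over all genes was not counted. RAD51AP1 showed the widest gap, 0.13 with siUHRF1-1 and −0.83 with siUHRF1-2, followed by PALB2 with 0.81 and −0.14.

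TSA alone lowered 5 members and raised 1 of the 47 tested. Over all genes 8.32% were called lower and 10.4% higher in this comparison. The 5 were RAD54L (−2.35 ± 0.27) and RAD54B (−1.85 ± 0.27), motor proteins that act with the recombinase on its DNA filament, EME1 (−1.27 ± 0.14), a subunit of a structure-specific endonuclease, FANCA (−1.18 ± 0.24) of the Fanconi core complex, and the checkpoint kinase CHEK2 (−1.46 ± 0.18). Their limma adjusted p-values lay between 0.00162 and 0.0117. NBN, which tethers the break-end nuclease complex to DNA damage, rose by 1.04 ± 0.27 (adjusted p = 0.0260). That call was lost with arrays centred on their medians (0.99, adjusted p = 0.0625), with normexp background correction (0.68), without a filter on dim probes, and without any 1 of the 4 siCONT arrays (adjusted p between 0.103 and 0.117). The FANCA call was lost with normexp (−0.88) and without any 1 of these arrays (adjusted p between 0.0549 and 0.0750). With siCONT counted as 1 sample 0 of the 6 were called, and 6 members had an unadjusted p under 0.05. In that fit 53 of all 17402 genes were called lower and 235 higher (1.65% either way). The lowest adjusted p of a member in that fit was 0.0891. Members changed by a median of −0.45, beside −0.13 over all genes.

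**Figure D2:**
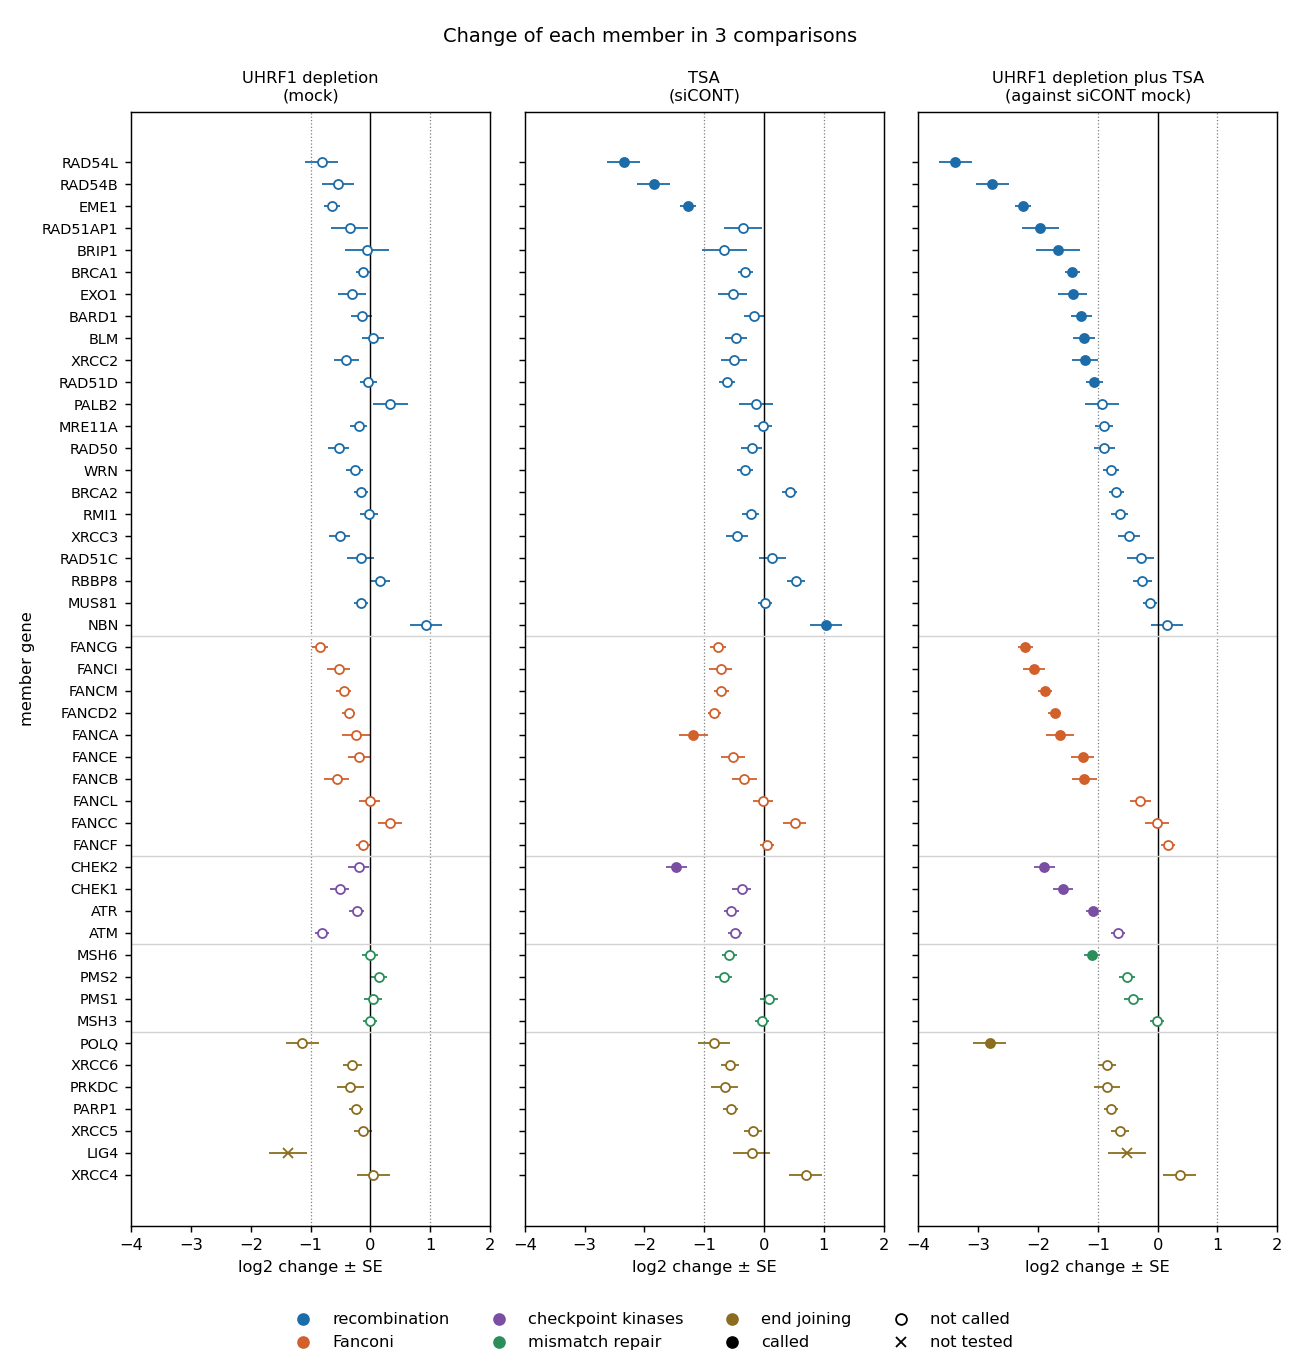
Log2 change ± SE of each member in 3 comparisons that share the siCONT mock arrays. Filled circles are called, open circles are not, crosses were not tested, and dotted lines mark 2-fold. UHRF1 depletion alone has 0 filled circles, TSA alone 6 and the combined treatment 23, all 23 to the left.

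Set against siCONT with mock, the combined treatment gave 23 calls, all lower, of the 46 members tested, where 11.1% of all genes tested were called lower and 15.3% higher. The 23 were 11 of the 22 recombination genes, 7 of the 10 Fanconi genes, 3 of the 4 checkpoint kinases, 1 of the 4 mismatch repair genes and 1 of the 6 end joining genes tested. Their changes ran from 2.08-fold to 10.4-fold lower, with adjusted p-values between 0.000159 and 0.0125. With siCONT counted as 1 sample 13 of them were called. These were 5 recombination, 5 Fanconi and 2 checkpoint genes, 0 mismatch repair genes and 1 end joining gene. Over all 17866 genes tested, that fit called 1038 lower and 1862 higher (16.2% either way). The balance over all genes depended on the scaling. With arrays centred on their medians 23.6% of all genes were called lower and 11.6% higher, beside 34 members lower, and with the percentile over detected probes 6.89% and 18.3%, beside 17 members lower. Of the 23, 18 were called in neither single treatment, and 5 were also called lower with TSA alone. The 18 also changed downward with TSA alone, by −0.16 (BARD1) to −0.84 (POLQ), under the 2-fold minimum. The same split over all genes was not counted.

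Levels in the following paragraphs are in the order of the arrays, with siUHRF1-1 before siUHRF1-2. Of the recombination genes, the motor proteins had the widest changes. RAD54L stood at 3.49 and 3.51 in siCONT with mock, 3.10 and 2.27 in depleted cells with mock, 1.17 and 1.14 in siCONT with TSA and 0.28 and −0.05 in depleted cells with TSA. The levels fell in steps from group to group, and no groups overlapped. The change with the combined treatment was −3.38 ± 0.27 (adjusted p = 0.000384, 0.0114 with siCONT as 1 sample). RAD54B stood at 1.55 and 1.53 in siCONT with mock, 1.42 and 0.57 in depleted cells with mock, −0.31 and −0.30 in siCONT with TSA and −1.09 and −1.36 in depleted cells with TSA. Both TSA groups lay below both mock groups, and the change was −2.76 ± 0.27 (adjusted p = 0.000696, 0.0173 with siCONT as 1 sample). The other RAD54B probe changed by −1.72, also called. EME1 stood at 1.04 and 0.91 in siCONT with mock, 0.48 and 0.20 in depleted cells with mock, −0.32 and −0.28 in siCONT with TSA and −1.24 and −1.31 in depleted cells with TSA. EME1 followed the same order without overlap and changed by −2.25 ± 0.14 (adjusted p = 0.000173, 0.0112).

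The BRCA genes direct the loading of the recombinase onto resected DNA ends. BRCA1 stood at 1.83 and 1.87 in siCONT with mock, 1.76 and 1.70 in depleted cells with mock, 1.53 and 1.55 in siCONT with TSA and 0.54 and 0.30 in depleted cells with TSA. No groups overlapped, and the depleted arrays with TSA stood well below the other 6. BRCA1 changed by −1.43 ± 0.13 with the combined treatment (adjusted p = 0.000497, 0.0291 with siCONT as 1 sample), against −0.12 ± 0.13 and −0.31 ± 0.13 with the single treatments. BARD1 stood at 1.56 and 1.48 in siCONT with mock, 1.36 and 1.40 in depleted cells with mock, 1.37 and 1.34 in siCONT with TSA and 0.00 and 0.48 in depleted cells with TSA. BARD1 is the obligate partner of BRCA1 in its ubiquitin ligase. Its pattern was of the same kind, and it changed by −1.28 ± 0.17 (adjusted p = 0.00205, 0.0528). BRIP1 stood at −1.26 and −1.46 in siCONT with mock, −1.37 and −1.47 in depleted cells with mock, −1.97 and −2.08 in siCONT with TSA and −2.42 and −3.64 in depleted cells with TSA. BRIP1, the helicase that binds BRCA1, was above background on 7 arrays, the exception being siUHRF1-2 with TSA. It changed by −1.66 ± 0.37 (adjusted p = 0.0125) and reached 0.0961 with siCONT as 1 sample. The level on that array is only a bound. Without it the change was −1.05, and without the first siCONT mock array the call was lost (adjusted p = 0.0659).

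RAD51AP1, a partner of the recombinase, was among the more strongly lowered genes. RAD51AP1 stood at −0.15 and −0.07 in siCONT with mock, 0.02 and −0.94 in depleted cells with mock, −0.58 and −0.34 in siCONT with TSA and −2.21 and −1.93 in depleted cells with TSA. Its groups overlapped under mock, where the siRNAs differed, and the depleted arrays with TSA were the lowest. It changed by −1.96 ± 0.31 (adjusted p = 0.00370, 0.0467 with siCONT as 1 sample). XRCC2 stood at 0.48 and 0.51 in siCONT with mock, −0.21 and 0.39 in depleted cells with mock, 0.01 and −0.02 in siCONT with TSA and −0.85 and −0.58 in depleted cells with TSA. RAD51D stood at −0.21 and −0.18 in siCONT with mock, −0.36 and −0.10 in depleted cells with mock, −0.79 and −0.85 in siCONT with TSA and −1.34 and −1.17 in depleted cells with TSA. XRCC2 and RAD51D are recombinase paralogs, both lowest in depleted cells with TSA. They changed by −1.21 ± 0.21 and −1.06 ± 0.14 (adjusted p = 0.00533 and 0.00173), and neither was called with siCONT as 1 sample (0.0796 and 0.0635). The other RAD51D probes changed by 0.02 and −0.35 and were not called, so its fall rests on 1 of 3 probes.

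BLM stood at 1.84 and 1.96 in siCONT with mock, 2.18 and 1.70 in depleted cells with mock, 1.43 and 1.43 in siCONT with TSA and 0.78 and 0.56 in depleted cells with TSA. EXO1 stood at 1.58 and 1.60 in siCONT with mock, 1.65 and 0.91 in depleted cells with mock, 1.05 and 1.08 in siCONT with TSA and 0.14 and 0.20 in depleted cells with TSA. BLM, a helicase that dissolves recombination intermediates, and EXO1, a nuclease that resects ends and also serves mismatch repair, were lowest in depleted cells with TSA, without overlap with any other group. They changed by −1.23 ± 0.19 and −1.42 ± 0.24 (adjusted p = 0.00302 and 0.00434, 0.0625 and 0.0651 with siCONT as 1 sample).

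The other 11 recombination genes were not called. MRE11A (−0.89 ± 0.15) and RAD50 (−0.89 ± 0.18), the core of the break-end nuclease complex, passed the adjusted p (0.00422 and 0.00813) under 2-fold, as did PALB2, WRN, BRCA2 and RMI1 with changes from −0.93 to −0.64. XRCC3, RAD51C, RBBP8, MUS81 and NBN lay between −0.48 and 0.16 and did not pass. XRCC3 had a second, dimmer probe, annotated to a RefSeq transcript, while its brightest probe is annotated to an Ensembl transcript. The dimmer probe changed by −2.05 (adjusted p = 0.00052, 0.0189 with siCONT as 1 sample) and would have been called.

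All Fanconi genes called were lowest in depleted cells with TSA. The core complex is a ubiquitin ligase, and its targets are FANCD2 and FANCI. FANCG stood at 4.81 and 4.86 in siCONT with mock, 4.08 and 3.90 in depleted cells with mock, 4.07 and 4.07 in siCONT with TSA and 2.52 and 2.73 in depleted cells with TSA. FANCA stood at 0.85 and 0.98 in siCONT with mock, 0.92 and 0.44 in depleted cells with mock, −0.19 and −0.34 in siCONT with TSA and −0.44 and −0.99 in depleted cells with TSA. FANCG was lower on every treated array than on the siCONT mock arrays, with the single treatments at similar levels and the combined treatment lowest. FANCG changed by −2.21 ± 0.13 (adjusted p = 0.000159, 0.0114 with siCONT as 1 sample), and FANCA by −1.63 ± 0.24 (adjusted p = 0.00271, 0.0454). FANCB stood at −0.62 and −0.52 in siCONT with mock, −0.87 and −1.39 in depleted cells with mock, −0.85 and −0.95 in siCONT with TSA and −1.62 and −1.97 in depleted cells with TSA. FANCE stood at 3.86 and 3.89 in siCONT with mock, 3.64 and 3.75 in depleted cells with mock, 3.37 and 3.34 in siCONT with TSA and 2.91 and 2.33 in depleted cells with TSA. Both genes belong to the core complex and showed a gap between the siRNAs under TSA, siUHRF1-2 being the lower. They changed by −1.23 ± 0.21 and −1.25 ± 0.20 (adjusted p = 0.00466 and 0.00357), and were not called with siCONT as 1 sample (0.0733 and 0.0666).

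The monoubiquitinated pair fell together. FANCD2 stood at 1.36 and 1.39 in siCONT with mock, 0.99 and 1.05 in depleted cells with mock, 0.55 and 0.53 in siCONT with TSA and −0.29 and −0.40 in depleted cells with TSA. FANCI stood at 3.59 and 3.60 in siCONT with mock, 3.34 and 2.79 in depleted cells with mock, 2.90 and 2.84 in siCONT with TSA and 1.51 and 1.55 in depleted cells with TSA. In both genes the depleted arrays with TSA were lowest, then siCONT with TSA, except that siUHRF1-2 with mock was below siCONT with TSA in FANCI. FANCD2 changed by −1.72 ± 0.11 (adjusted p = 0.000191, 0.0166 with siCONT as 1 sample) and FANCI by −2.07 ± 0.19 (adjusted p = 0.000556, 0.0193). FANCD2 has near-identical pseudogene copies, so its signal is uncertain, and its other probes changed by −0.95 (not called) and −2.33 (called). FANCM stood at 2.12 and 2.12 in siCONT with mock, 1.78 and 1.57 in depleted cells with mock, 1.41 and 1.41 in siCONT with TSA and 0.27 and 0.21 in depleted cells with TSA. FANCM, the translocase that anchors the core complex to DNA, fell in the same order without overlap and changed by −1.88 ± 0.12 (adjusted p = 0.000197, 0.0149).

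Of the core complex, FANCL, its ubiquitin ligase subunit, and FANCF and FANCC did not pass, with changes of −0.29 ± 0.17, 0.17 ± 0.12 and −0.02 ± 0.20. The values for FANCC differed between probes. Its dimmer probe changed by −1.58 (adjusted p = 0.00829).

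Of the checkpoint kinases, which signal breaks and stalled forks, CHEK1, CHEK2 and ATR were called lower. CHEK1 stood at 1.75 and 1.82 in siCONT with mock, 1.43 and 1.10 in depleted cells with mock, 1.37 and 1.45 in siCONT with TSA and 0.05 and 0.35 in depleted cells with TSA. CHEK2 stood at 3.47 and 3.50 in siCONT with mock, 3.54 and 3.03 in depleted cells with mock, 2.01 and 2.03 in siCONT with TSA and 1.59 and 1.59 in depleted cells with TSA. CHEK1 was lowest with the combined treatment, whereas CHEK2 was low on all 4 TSA arrays. CHEK1 changed by −1.58 ± 0.16 (adjusted p = 0.000825, 0.0297 with siCONT as 1 sample) and CHEK2 by −1.89 ± 0.18 (adjusted p = 0.000595, 0.0218). CHEK2 has pseudogene copies, and its 5 other probes changed by −1.56 to −2.15. ATR stood at 2.76 and 2.72 in siCONT with mock, 2.52 and 2.50 in depleted cells with mock, 2.11 and 2.28 in siCONT with TSA and 1.75 and 1.58 in depleted cells with TSA. ATR was lowest with the combined treatment and changed by −1.08 ± 0.12 (adjusted p = 0.00113, 0.0518). ATM changed by −0.67 ± 0.12 (adjusted p = 0.00581), while its other probes changed by −0.16 and 0.39.

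**Figure D3:**
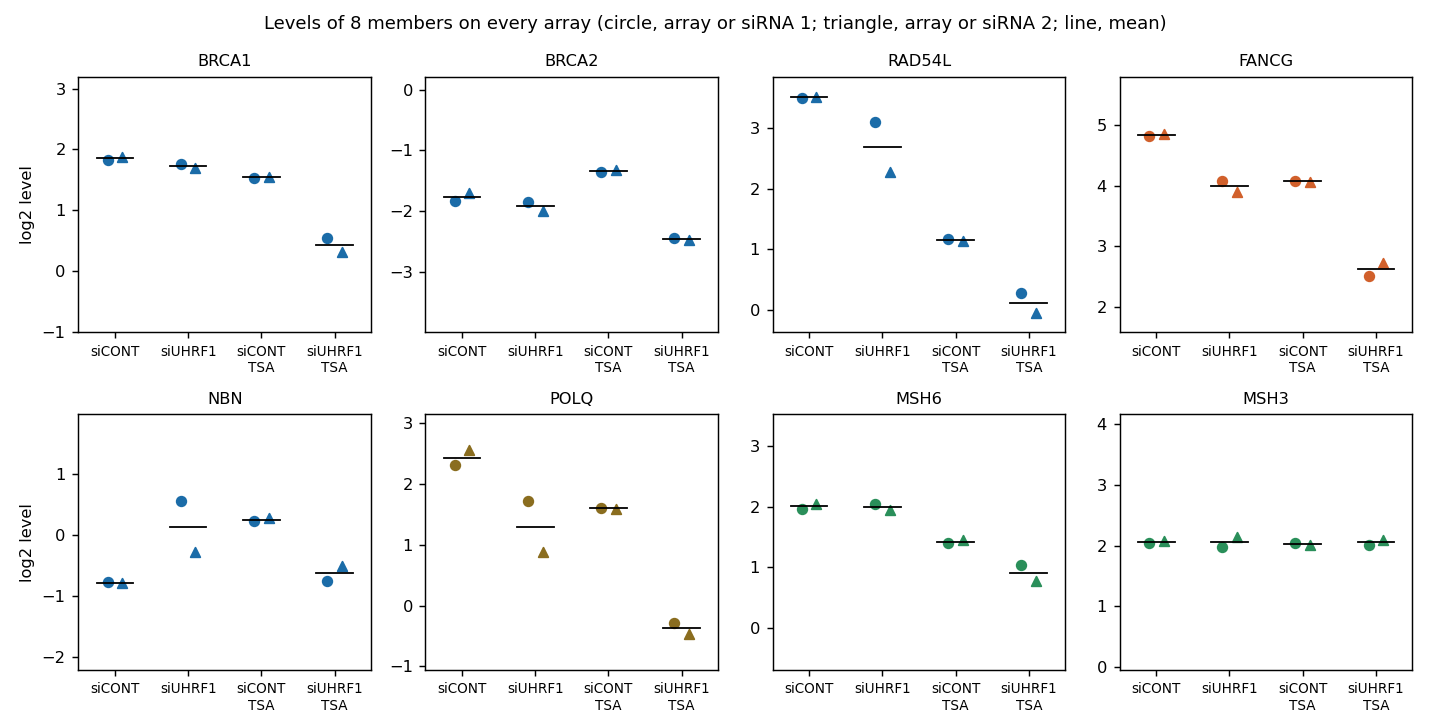
Log2 levels of 8 members on every array (points) with the group mean (line); all panels span the same number of log2 units. BRCA1 and BRCA2 are lowest in UHRF1-depleted cells with TSA, RAD54L is already low in siCONT with TSA, and MSH3 is level.

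Mismatch repair genes moved less. MSH6 stood at 1.96 and 2.05 in siCONT with mock, 2.04 and 1.94 in depleted cells with mock, 1.40 and 1.45 in siCONT with TSA and 1.03 and 0.79 in depleted cells with TSA. MSH3 stood at 2.04 and 2.08 in siCONT with mock, 1.97 and 2.14 in depleted cells with mock, 2.04 and 2.02 in siCONT with TSA and 2.01 and 2.09 in depleted cells with TSA. MSH6 and MSH3 are the alternative partners in the complexes that recognise mismatches. MSH6 was lower on all TSA arrays and lowest in depleted cells, while the 8 values of MSH3 lay within 0.17 of each other. MSH6 changed by −1.10 ± 0.13 (adjusted p = 0.00133, 0.0552 with siCONT as 1 sample) and MSH3 by −0.01 ± 0.12 (adjusted p = 0.956). MSH6 was just past 2-fold, and its change was −0.96 under quantile normalization, −0.85 with the percentile taken over detected probes and −0.97 without the siUHRF1-2 array with TSA, each under 2-fold.

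PMS2 stood at 3.06 and 3.11 in siCONT with mock, 3.20 and 3.26 in depleted cells with mock, 2.37 and 2.45 in siCONT with TSA and 2.73 and 2.42 in depleted cells with TSA. PMS1 stood at 1.34 and 1.32 in siCONT with mock, 1.55 and 1.20 in depleted cells with mock, 1.48 and 1.35 in siCONT with TSA and 1.01 and 0.84 in depleted cells with TSA. PMS2 and PMS1 encode partners of the second mismatch repair complex. PMS2 was lower on the TSA arrays with either siRNA, and PMS1 was lowest in depleted cells with TSA. They changed by −0.51 ± 0.14 and −0.41 ± 0.16 (adjusted p = 0.0253 and 0.0755). PMS2 has many near-identical copies, so its signal is uncertain, and its 5 other probes changed by −0.66 to −1.15, 1 of them called.

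Among the end joining genes POLQ stood apart. POLQ stood at 2.32 and 2.55 in siCONT with mock, 1.72 and 0.88 in depleted cells with mock, 1.60 and 1.60 in siCONT with TSA and −0.28 and −0.46 in depleted cells with TSA. The depleted arrays with TSA were far below the other groups, which overlapped in part. POLQ changed by −2.81 ± 0.27 (adjusted p = 0.000670, 0.0160 with siCONT as 1 sample). POLQ acts in the alternative pathway, which starts from resected ends as recombination does.

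The classical pathway uses the Ku dimer and the kinase it recruits. XRCC5 stood at 3.97 and 3.88 in siCONT with mock, 3.99 and 3.63 in depleted cells with mock, 3.78 and 3.71 in siCONT with TSA and 3.25 and 3.33 in depleted cells with TSA. XRCC6 stood at 8.60 and 8.66 in siCONT with mock, 8.44 and 8.21 in depleted cells with mock, 8.03 and 8.09 in siCONT with TSA and 7.94 and 7.62 in depleted cells with TSA. PRKDC stood at 1.55 and 1.62 in siCONT with mock, 1.58 and 0.92 in depleted cells with mock, 0.89 and 0.97 in siCONT with TSA and 0.84 and 0.64 in depleted cells with TSA. These Ku subunits (XRCC5 and XRCC6) and the DNA-dependent protein kinase (PRKDC) were lowest in depleted cells with TSA, without overlap with another group. They changed by −0.64 ± 0.15, −0.85 ± 0.15 and −0.85 ± 0.22, past the adjusted p (0.0156, 0.00574 and 0.0231) but under 2-fold. A second, dimmer PRKDC probe changed by −1.37 (adjusted p = 0.00294, 0.0375 with siCONT as 1 sample) and would have been called. In all, 7 of the 27 other probes tested, from 15 members, gave another call than the brightest probe. PARP1 stood at 4.67 and 4.70 in siCONT with mock, 4.39 and 4.50 in depleted cells with mock, 4.15 and 4.11 in siCONT with TSA and 3.82 and 4.0 in depleted cells with TSA. PARP1, a sensor of DNA strand breaks, was likewise lower on the TSA arrays and lowest in depleted cells, and changed by −0.78 ± 0.12 (adjusted p = 0.00328).

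XRCC4 stood at 0.18 and 0.19 in siCONT with mock, 0.68 and −0.22 in depleted cells with mock, 0.90 and 0.86 in siCONT with TSA and 0.59 and 0.53 in depleted cells with TSA. XRCC4, the scaffold of the ligase, was higher on the TSA arrays than on the siCONT mock arrays, and the siRNAs disagreed under mock. Its change of 0.37 ± 0.28 did not pass (adjusted p = 0.302). LIG4 stood at −2.86 and −3.49 in siCONT with mock, −4.91 and −4.19 in depleted cells with mock, −3.57 and −3.19 in siCONT with TSA and −3.65 and −3.72 in depleted cells with TSA. LIG4, the ligase itself, was well above background on 3 arrays, namely 1 of siCONT with mock and both of siCONT with TSA, and was not tested in this comparison. Values near background have no reliable order.

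Set side by side, 18 of the 32 recombination and Fanconi genes were called lower with the combined treatment, with a median change of −1.22, and 2 of the 10 mismatch repair and end joining genes tested, with a median of −0.71. Over all genes tested 11.1% were called lower, with a median of −0.14. The counts were 10 of 32 and 1 of 10 with siCONT counted as 1 sample, beside 1038 of all 17866 genes called lower. With TSA alone the medians had the other order, −0.34 in recombination and Fanconi genes and −0.56 in mismatch repair and end joining genes. With the combined treatment the order of the medians was the same under quantile normalization and with normexp background correction, but their distance was not. The medians were −1.19 against −0.40 with the first and −0.74 against −0.61 with the second. Centring arrays on their medians, or taking the percentile over detected probes, shifts all genes of an array alike. Such a shift cannot change the order or the distance, and with arrays centred on their medians they were −1.62 against −1.11. Centring on the median moved the median of all genes to −0.54, and 5 of the 6 end joining genes were then called lower.

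Genes of the same pathways outside the 47 did not follow this division. Of 10 other Fanconi genes tested, 3 were called lower and 1 higher, with a median of −0.15. Over all genes 11.1% were called lower and 15.3% higher. UBE2T (−1.75 ± 0.16), the conjugating enzyme of the pathway, and USP1 (−1.10 ± 0.11), which removes the ubiquitin again, fell, and ERCC1 (1.01 ± 0.12), a nuclease subunit, rose. Of 11 other mismatch repair genes 8 were called lower, with a median of −1.32. Among them were LIG1 (−1.58 ± 0.13), POLD1 (−1.32 ± 0.13) and RFC5 (−1.42 ± 0.18), which also act at the replication fork, and MLH3 (−1.56 ± 0.16). Of 27 other recombination and checkpoint genes 10 were called lower, with a median of −0.85, and of 8 other end joining genes 3, with a median of −0.75. When siCONT was counted as 1 sample, 2 of the 10 other Fanconi genes were called and 4 of the 11 other mismatch repair genes. Of the 27 and the 8, 6 and 0 were called. All these calls were lower, where 1038 of all 17866 genes were called lower and 1862 higher. No difference between arms was tested, and the medians depend on which genes stand for mismatch repair and for the Fanconi pathway.

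Genes of the replication machinery moved with the repair genes. Of 23 such genes 18 were called lower with the combined treatment and 0 higher (15 with siCONT as 1 sample), with a median of −1.61, including TYMS (−3.35 ± 0.16), MCM7 (−2.15 ± 0.13) and GINS1 (−2.10 ± 0.12). Over all genes 11.1% were called lower and 15.3% higher, and 1038 of 17866 were called lower with siCONT as 1 sample. By array, their median relative to siCONT with mock was −1.54 and −1.78 in depleted cells with TSA, beside −0.93 and −0.97 for recombination, −1.20 and −1.66 for Fanconi, −0.34 and −0.58 for mismatch repair and −0.72 and −0.81 for end joining. The part of cell proliferation in the falls of the repair genes was not tested.

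**Figure D4:**
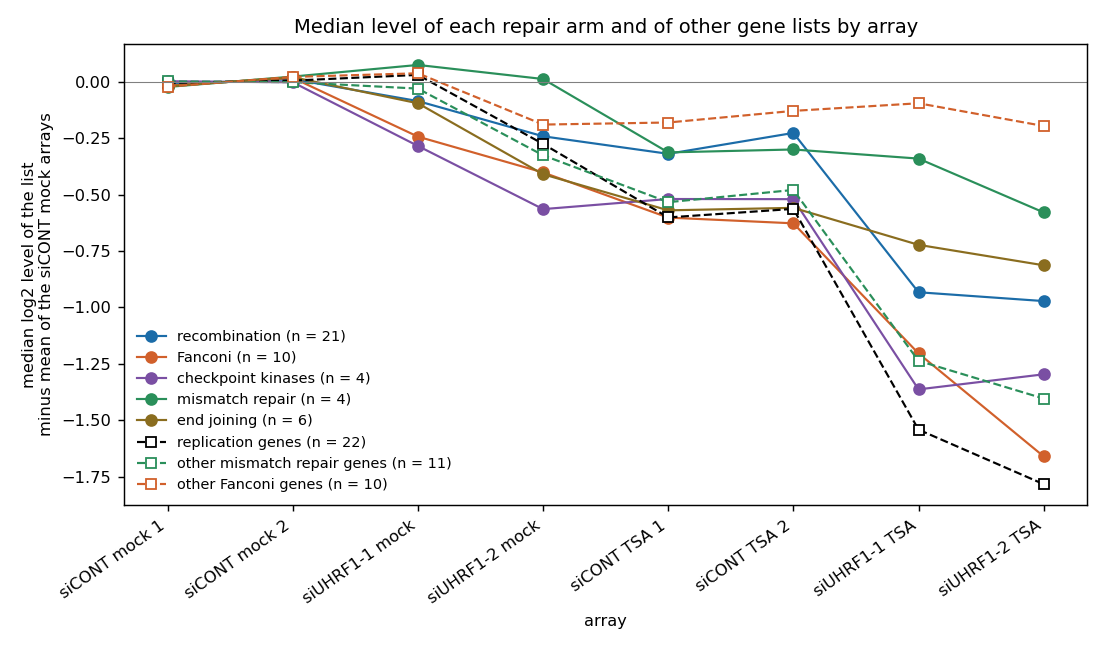
Median log2 level of each arm (solid lines) and of 3 other gene lists (dashed lines) on each array, relative to the mean of the siCONT mock arrays; n is the number of genes above background on all arrays, and lines only join the points. The Fanconi, checkpoint, replication and other mismatch repair lists all lie between −1.20 and −1.78 in UHRF1-depleted cells with TSA, while the other Fanconi genes lie above every arm there.

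The comparisons within an agent or an siRNA share arrays with those above. UHRF1 depletion under TSA lowered 10 of the 47 members and raised 0, where 2.88% of all genes were called lower and 5.91% higher. They were BRCA1 (−1.11 ± 0.13), BRCA2 (−1.11 ± 0.12), BARD1 (−1.12 ± 0.17), RAD51AP1 (−1.61 ± 0.31), RAD54L (−1.04 ± 0.27), FANCG (−1.44 ± 0.13), FANCI (−1.34 ± 0.19), FANCM (−1.17 ± 0.12), CHEK1 (−1.21 ± 0.16) and POLQ (−1.97 ± 0.27), with limma adjusted p-values from 0.00347 to 0.0499. With siCONT counted as 1 sample 0 of the 47 were called and 14 had an unadjusted p under 0.05. In that fit 4 of all 17946 genes were called lower and 139 higher (0.797% either way). Leaving out an array moved the count between 1 and 11, 1 being without either siCONT array with TSA. Both siRNAs moved 45 of the 47 members the same way under TSA, 43 of them lower. Both changes are taken from the same siCONT mean, so their signs are not independent. The 47 include LIG4, near background on the depleted arrays, and the share over all genes was not counted.

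TSA in UHRF1-depleted cells lowered 21 of the 46 members tested and raised 0, where 9.07% of all genes were called lower and 12.2% higher. With siCONT counted as 1 sample 17 were called, all lower, and here both groups compared hold 2 different siRNAs. That fit called 1386 of all 17976 genes lower and 1885 higher (18.2% either way). PALB2 (−1.27 ± 0.29), the bridge between the BRCA proteins, was called lower here (adjusted p = 0.0163) and not against siCONT with mock, where it changed by −0.93 ± 0.29. The siRNAs differed under mock, where PALB2 stood at −0.85 with siUHRF1-1 and −1.79 with siUHRF1-2, against −2.54 and −2.63 with TSA. Of the 21, 20 were also called lower with the combined treatment against siCONT with mock, that is 20 of the 23.

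In most members the change with the combined treatment lay below the sum of the changes with the single treatments. The interaction (the change on UHRF1 depletion in TSA-treated cells, less that in mock-treated cells) was negative in 37 of 47 members with a median of −0.38. Over all genes tested it was negative in 8380 of 18413, with a median of 0.08. By arm the median was −0.54 in recombination and Fanconi genes and 0.02 in mismatch repair and end joining genes, or −0.16 in the latter without LIG4, whose levels were near background. None of the 47 members was called, where 2.03% of all genes were called lower and 3.01% higher. The limma p was under 0.05 without adjustment for 18 members and for 3 with siCONT counted as 1 sample, a fit in which 0 members and 0% of all genes were called.

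BRCA2 and NBN are given by array after their values were seen. BRCA2 stood at −1.83 and −1.70 in siCONT with mock, −1.85 and −1.99 in depleted cells with mock, −1.35 and −1.32 in siCONT with TSA and −2.43 and −2.47 in depleted cells with TSA. BRCA2 was higher in siCONT with TSA than in the mock groups and lowest in depleted cells with TSA, without overlap. Its interaction of −0.96 ± 0.17 and that of BRCA1, −0.99 ± 0.18, passed the adjusted p (0.0354 and 0.0362) just under 2-fold, and did not with siCONT as 1 sample (0.558 and 0.558).

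NBN stood at −0.78 and −0.79 in siCONT with mock, 0.56 and −0.28 in depleted cells with mock, 0.23 and 0.28 in siCONT with TSA and −0.75 and −0.51 in depleted cells with TSA. NBN was higher with either single treatment than in siCONT with mock, and with both it lay just above the siCONT mock level. Its interaction was −1.81 ± 0.38, with an adjusted p of 0.0503, and 0.497 with siCONT as 1 sample. It was the member farthest below the sum of the single changes, which was 1.97, against a change of 0.16 with the combined treatment.

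**Figure D5:**
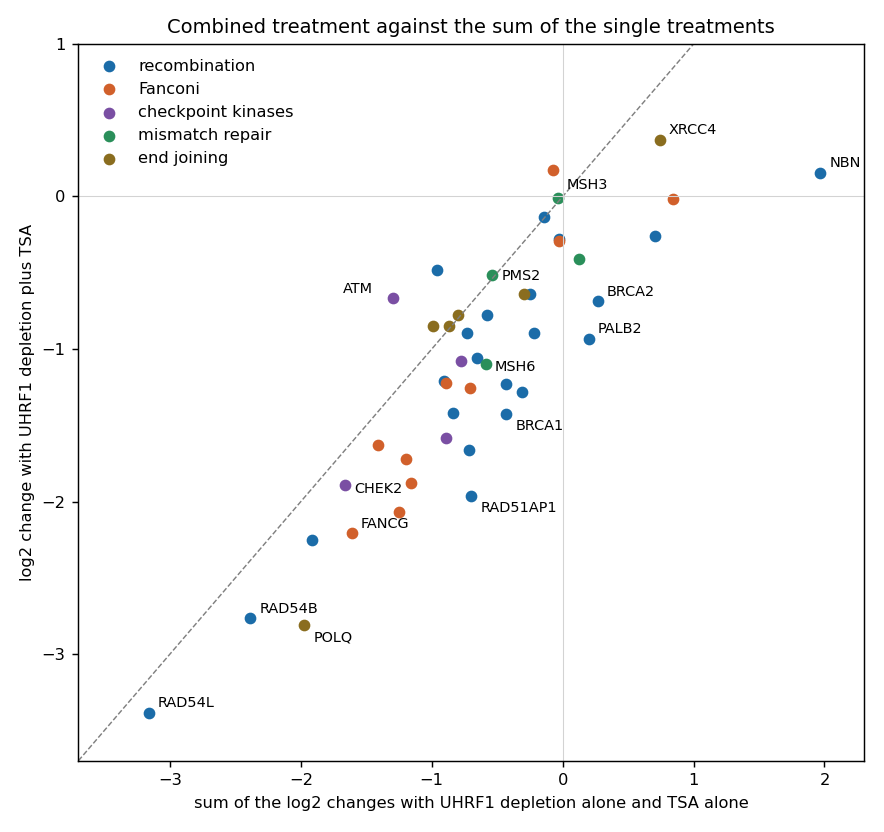
Log2 change with the combined treatment (vertical) against the sum of the changes with UHRF1 depletion alone and TSA alone (horizontal) for 46 members; the dashed line is equality, and all changes share the siCONT mock arrays. Most points lie below the line, NBN farthest, while MSH3, PMS2 and RAD54L lie near it.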

How the data were processed

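RNA of 8 samples was hybridised to 1-colour Agilent arrays of 1 slide, and the authors deposited the scanner output of Agilent Feature Extraction 10.7 with processed intensity per spot, background-corrected by that program. A second deposited table held the same processed intensity, rounded and not scaled between arrays (0.995 to 1.00 times the scanner value), and was used as an alternative. Gene names of probes are those of the array's design, and 31 members had 1 probe.

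Control spots and spots marked as outliers were left out, and spots of 1 probe were averaged. Intensities were divided by the 75th percentile of their array, taken to log2 and fitted with limma 3.58.1 (R 4.3.3) with 4 group means over all 8 arrays (residual degrees of freedom 4, prior 2.166). P-values were adjusted over all probes tested by Benjamini-Hochberg. The fit was tested on simulated data with the same spread on all arrays. That test cannot show how the fit handles the unequal spread of siCONT arrays and siRNAs. The comparisons were each treatment against siCONT with mock, each treatment within the other, and the interaction. Arrays were grouped by the deposited titles. A second fit averaged the siCONT arrays of an agent (6 samples, residual degrees of freedom 2). The number of arrays limits the precision.

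Each member was represented by its brightest probe, by the mean of the 8 arrays. Values of every array are given for members called with the combined treatment and for all mismatch repair and end joining members, and another probe is named where its change differed by over 1 on the log2 scale or had the opposite direction. The other probes of FANCD2, CHEK2 and PMS2 are added because of their near-identical copies, and that of PRKDC after its values were seen. Nucleotide excision repair is not reported here. The members and gene lists were chosen with earlier results of these data known. Alternatives were other scalings, background correction, filters, probe averaging, a replicate block, leaving out each array and the methods' t-test.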

Additional observations from a re-analysis of the deposited data

Results flagged for a closer look

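The effect of UHRF1 depletion differed between TSA and mock in BRCA1 and BRCA2, by the interaction of the limma fit. It was −0.99 on the log2 scale for BRCA1 (adjusted p = 0.0362) and −0.96 for BRCA2 (adjusted p = 0.0354). Both changes were under 2-fold, and with the siCONT arrays of an agent counted as 1 sample the adjusted p was 0.558 for each gene.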

How the results depend on the processing

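None of the 60 calls of members reversed its direction in an alternative. Changes that were not called did switch sign, as that of FANCC with the combined treatment, between −0.80 and 0.23. With UHRF1 depletion alone the count of 0 became 1 when probes had to be above background on every array, 1 with the mean of a gene's probes, 3 without a fold minimum, and 0 to 2 when an array was left out. With TSA alone the count of 6 became 3 with normexp, 0 with siCONT counted as 1 sample and 19 without a fold minimum, and ranged from 4 to 6 when an array was left out. With the combined treatment the count of 23 became 34 with arrays centred on their medians, 13 with siCONT counted as 1 sample, 35 without a fold minimum and 15 by the methods' t-test after adjustment, and ranged from 20 to 24 when an array was left out. For UHRF1 depletion under TSA the count of 10 became 23 with arrays centred on their medians, 4 with normexp, 0 with siCONT counted as 1 sample, 20 without a fold minimum, 0 by the methods' t-test after adjustment, and 1 to 11 when an array was left out. For TSA in depleted cells the count of 21 became 12 with normexp, 32 without a fold minimum and 0 by the methods' t-test after adjustment. For the interaction the count of 0 became 2 under quantile normalization, 4 with arrays centred on their medians, 1 each with the percentile over detected probes, normexp, the second deposited table, probes above background on every array and the mean of a gene's probes, and 2 without a fold minimum, and ranged from 0 to 9 when an array was left out, 9 being without the siUHRF1-2 array with mock. Calls over all genes moved with these settings too. With arrays centred on their medians, genes called lower went from 1980 to 4216 with the combined treatment. For UHRF1 depletion under TSA they went from 517 to 1554, and for the interaction from 374 to 881. With normexp they went from 1448 to 725 with TSA alone and from 517 to 284 for UHRF1 depletion under TSA. For TSA in depleted cells they went from 1631 to 1010 with normexp. The causes were not tested.

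Of the 60 single calls, 35 were kept with normexp, 47 with the percentile over detected probes, 30 with siCONT counted as 1 sample and 49 to 58 when an array was left out. The median of all genes with the combined treatment was −0.14, −0.54 with arrays centred on their medians and 0.10 with the percentile over detected probes. Same-numbered arrays deviated together between the 2 depletion groups (correlation 0.34), where the number is the siRNA, and not between the other groups (−0.06 to 0.07), where arrays share only a number. A replicate block left the counts at 0, 6, 23, 10, 21 and 0 in the order above.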

Other observations

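Genes of base excision repair and of the E2F and RB family, examined as values only, were also lower in part with the combined treatment than in siCONT with mock. Of 12 base excision repair genes 5 were called lower, with a median of −0.87, beside 11.1% of all genes and a median of −0.14 over them. They were the glycosylases NEIL3 (−2.73 ± 0.56), UNG (−1.88 ± 0.17), NTHL1 (−1.50 ± 0.24) and OGG1 (−1.16 ± 0.20) and the endonuclease APEX1 (−1.32 ± 0.14). With siCONT counted as 1 sample 2 of the 12 were called, both lower, beside 1038 of all 17866 genes lower and 1862 higher. Of 13 E2F and RB factors, which govern entry into S phase, 3 were called lower, namely RBL1 (−1.53 ± 0.13), E2F5 (−1.49 ± 0.45) and E2F7 (−1.44 ± 0.18), with a median of −0.79, and 2 with siCONT counted as 1 sample.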
